A study of Mus musculus with 76 samples.

Results

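The collagen genes are the 42 genes of the array whose symbol reads Col, a number, a and a number, out of 18194 genes measured. Each was represented by the probe set with the highest mean, of 82 probe sets that name one of them. They comprise 11 fibrillar genes, the 6 chains of the basement membrane collagen type IV, and 25 other collagens: fibril-associated, microfibrillar, network-forming, transmembrane and multiplexin types. Of these, 37 were bright enough to be tested (10 fibrillar, 6 of type IV and 21 other), among 13868 tested genes.

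The 76 samples were tumours of C57BL/6 mice in a directed complementation model, in which the doxycycline-inducible HER2(V659E) oncogene was switched off by doxycycline withdrawal and a single introduced gene had to sustain growth. The introduced gene was MAP3K11 (also named MLK3), ErbB3, FAK1, FGFR2aIIIb, FGFR2aIIIc, FGFR3, MAP3K7 (also named TAK1), PIP5K1B, RONd160, RON+MSP, RSK2, TNK2 or HER2, with 6 tumour arrays per gene and 4 for FAK1. All groups thus share the strain and the silenced inducible HER2, and there was no group without an introduced gene. The 6 MAP3K11 arrays were labelled with cachexia, the wasting that accompanies some cancers, and the other 70 were not, so cachexia and MAP3K11 cannot be told apart. The labels also carry an undefined mark, T1, T2 or T3, and do not say from which cells the tumours arose or how many animals they came from.

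Array medians lay between 5.45 and 5.56 on the log2 scale, and no 2 arrays were identical. Within the groups, however, the arrays could be matched into 38 pairs, all of them with different T marks. The median expression of the 19 autosomes over 13372 genes correlated with a median r of 0.957 within pairs, 0.161 for unpaired arrays within a group and -0.0335 across groups. The matching placed every array in a pair and made this same correlation as high as possible. Its height within pairs was thus partly fixed by the matching and does not by itself show that the pairs are real. The MAP3K11 pairs had an r of 0.951, 0.805 and 0.473. The labels call all samples biological replicates and give no such pairing. Every count below is therefore given first with arrays as replicates and then with pairs as a random block (limma, pair correlation 0.628). Differences, their SE and adjusted p-values come from the fit with arrays as replicates unless pairs are named. That fit treats the arrays of a pair as independent. A gene is called where its p-value, adjusted by Benjamini-Hochberg over all 13868 genes, is under 0.05.

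Collagens are trimers of 3 chains wound into a helix. Fibrillar collagens (types I, II, III, V, XI, XXIV and XXVII) assemble into the fibres of connective tissue, and in tumours are made largely by fibroblasts. Type IV forms the sheet of basement membranes under epithelium and around vessels: Col4a1 and Col4a2 build the common network, while Col4a3, Col4a4, Col4a5 and Col4a6 enter more restricted ones. Multiplexins (Col15a1 and Col18a1) sit in basement membrane zones, and FACIT collagens decorate fibrils. In kidney, cartilage and skin several of these chains are tissue-restricted: Col2a1 is the main fibrillar chain of cartilage, Col10a1 marks hypertrophic chondrocytes and Col17a1 belongs to the hemidesmosomes of basal epithelium.

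The 250 bases before an annotated start (RefSeq, GRCm38.p6) of 5 members that the results turn on are given here. Col1a2 and Col3a1 are fibrillar genes that varied together, Col15a1 and Col18a1 are the 2 multiplexins that moved in opposite directions, and Col10a1 is the gene with the widest range of group means. They lie at chr6:4505368-4505617 (Col1a2, plus strand), chr1:45311288-45311537 (Col3a1, plus), chr4:47207762-47208011 (Col15a1, plus), chr10:77166531-77166780 (Col18a1, minus) and chr10:34389731-34389980 (Col10a1, plus). Capitals mark 3 classic promoter motifs, each searched on both strands: the letters CCAAT, the TATA box (TATAAA) and the GC box (GGGCGG).
Col1a2: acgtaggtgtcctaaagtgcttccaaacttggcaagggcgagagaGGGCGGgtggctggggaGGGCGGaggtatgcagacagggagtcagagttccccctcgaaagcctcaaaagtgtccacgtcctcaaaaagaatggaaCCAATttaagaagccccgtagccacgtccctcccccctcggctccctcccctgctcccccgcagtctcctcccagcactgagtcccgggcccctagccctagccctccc
Col3a1: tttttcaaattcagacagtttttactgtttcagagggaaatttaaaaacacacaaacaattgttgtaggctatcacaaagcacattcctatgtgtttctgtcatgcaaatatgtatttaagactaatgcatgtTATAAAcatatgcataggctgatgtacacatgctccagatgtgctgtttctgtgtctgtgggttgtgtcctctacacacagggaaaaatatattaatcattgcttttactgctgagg
Col15a1: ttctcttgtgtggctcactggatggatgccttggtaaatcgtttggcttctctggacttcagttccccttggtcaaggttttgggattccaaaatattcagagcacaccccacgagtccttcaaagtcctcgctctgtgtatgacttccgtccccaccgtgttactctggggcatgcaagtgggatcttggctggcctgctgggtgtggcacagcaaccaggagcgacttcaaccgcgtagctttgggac
Col18a1: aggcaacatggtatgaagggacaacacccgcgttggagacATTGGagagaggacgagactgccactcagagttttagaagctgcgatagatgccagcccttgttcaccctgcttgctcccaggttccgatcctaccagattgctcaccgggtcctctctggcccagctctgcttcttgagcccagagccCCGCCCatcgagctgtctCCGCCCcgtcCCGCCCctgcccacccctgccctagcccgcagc
Col10a1: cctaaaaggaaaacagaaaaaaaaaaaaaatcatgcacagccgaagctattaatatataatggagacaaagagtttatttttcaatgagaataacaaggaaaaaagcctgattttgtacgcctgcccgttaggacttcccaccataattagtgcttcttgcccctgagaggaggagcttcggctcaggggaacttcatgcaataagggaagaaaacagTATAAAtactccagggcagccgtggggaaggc
The Col1a2 window held 1 CCAAT and 2 GC boxes, and the printed window of Col18a1 held 1 CCAAT box and 3 GC boxes, all on the opposite strand. The table gives a further start of Col18a1, whose window (chr10:77113706-77113955, minus strand) held none of the 3 motifs. Col3a1 and Col10a1 each held 1 TATAAA, which began 117 bases before the start in Col3a1 and 32 in Col10a1. The printed window of Col15a1 held none of the 3 motifs. It lies inside the annotated gene (chr4:47207655-47313167), so it precedes a later start, and the bases before the gene's first base were not searched. GC content was 62.0% in both Col1a2 and Col18a1, 53.6% in Col15a1, 41.6% in Col10a1 and 35.2% in Col3a1. The table held 36 windows for 33 of the 42 collagen genes. CCAAT occurred in 13 of those 36 (36.1%), against 33.8% of all 32851 windows of that length, and TATAAA in 5 (13.9%), against 12.4%. GGGCGG occurred in 21 (58.3%), against 32.7%. These are matches of letters, not binding sites.

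Collagen expression differed between the groups of introduced genes. Of the 37 tested collagen genes, 31 differed among the 13 groups (limma F test), as did 85.9% of all tested genes. With pairs as a block 26 did, against 54.0% of all genes. They were all 10 fibrillar genes (8 with pairs), 5 of 6 type IV chains (5) and 16 of 21 other collagens (13). Col4a6, Col6a4, Col9a1, Col9a3, Col22a1 and Col25a1 did not pass, and their group means spanned between 0.23 and 0.37 (log2). The share of collagens was thus 83.8% with arrays as replicates, near that of all genes, and 70.3% with pairs, above that of all genes; the difference from all genes was not tested.

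The widest spans of group means belonged to single genes of different classes. Col10a1 spanned 3.37 log2 units, with the highest mean in ErbB3 tumours (8.23) and the lowest in FGFR2aIIIb tumours (4.86). Col8a2, a network-forming chain of vessel and corneal membranes, spanned 2.72 between ErbB3 (6.36) and FAK1 (3.64). Col2a1 spanned 2.58 between MAP3K11 (8.0) and TNK2 (5.42), and Col4a4 spanned 2.42 between FGFR3 (6.32) and MAP3K11 (3.90). A difference of 1 on this scale is a 2-fold difference in signal, and levels of different genes cannot be set against each other. MAP3K11 tumours held the highest group mean of 8 of the 10 tested fibrillar genes; the exceptions were Col5a1 (RON+MSP) and Col11a1 (ErbB3). In bulk tumours a lower level can mean fewer cells of a type or less RNA per cell, which cannot be told apart.

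**Figure D1:**
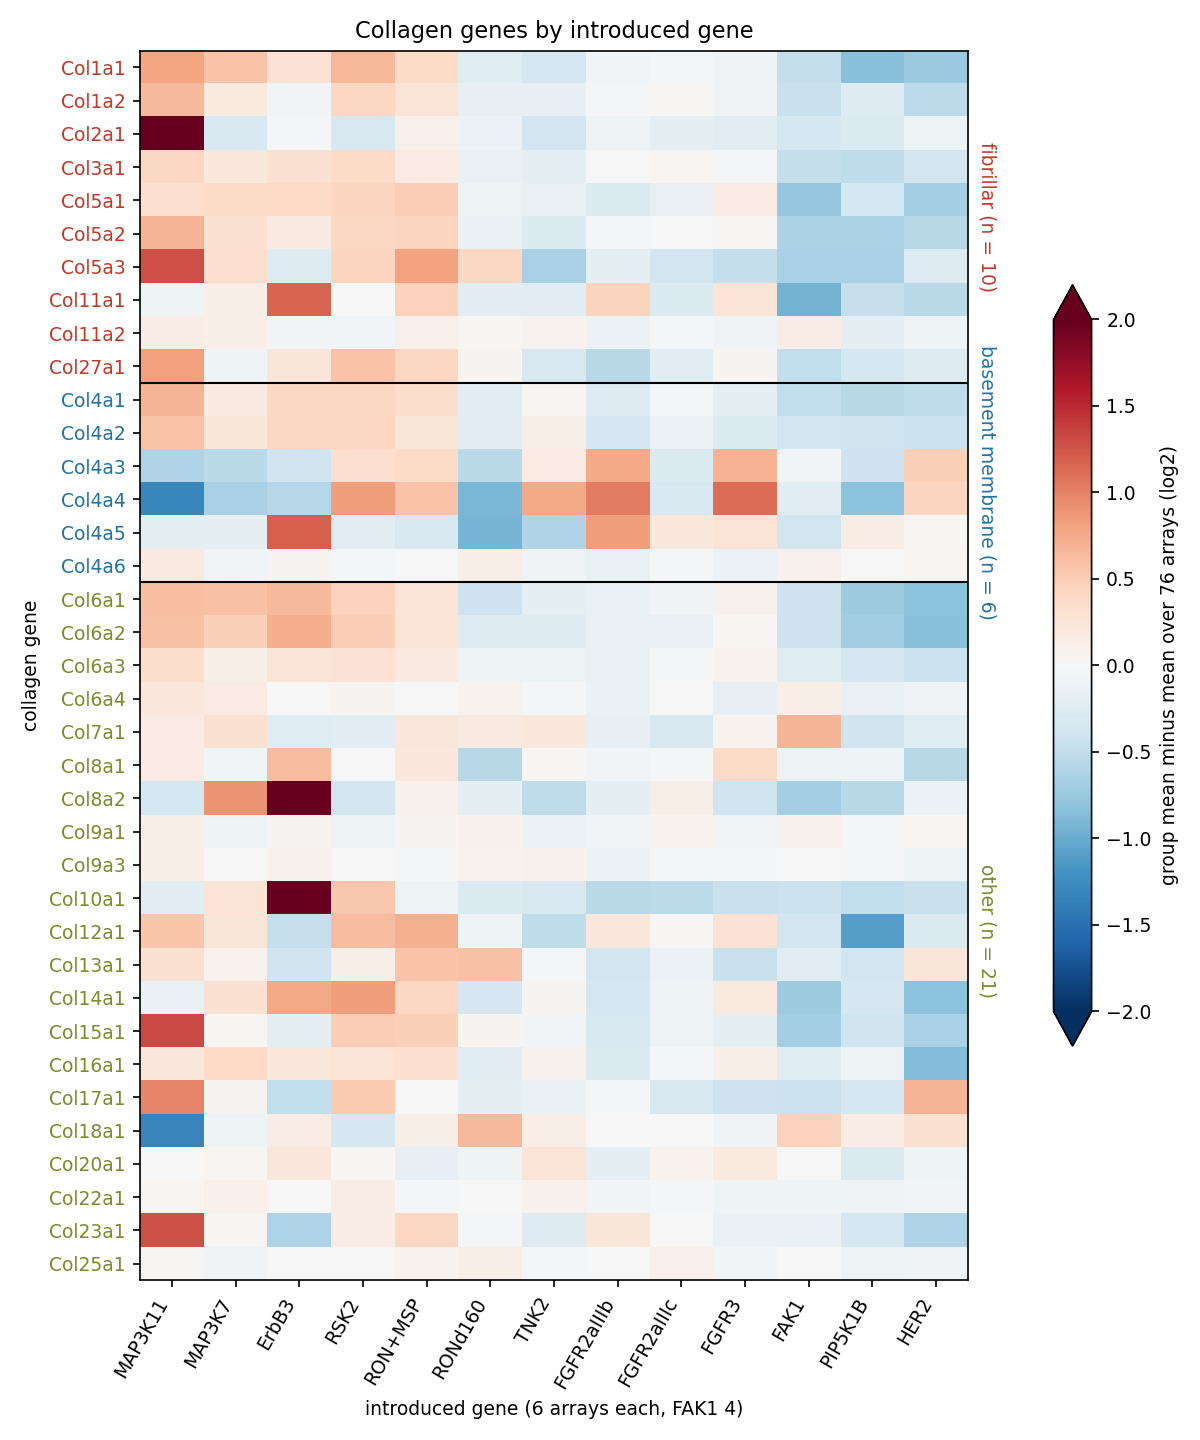
Group means of the 37 tested collagen genes (rows, coloured by class) in the 13 groups (columns), each gene centred on its own mean over all arrays (log2 units, colour limited to -2 and 2). Most fibrillar rows are high in MAP3K11 and low in HER2 and PIP5K1B, Col10a1 and Col8a2 are high in ErbB3, and Col18a1 is low in MAP3K11.

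Averaged over the class, each gene being centred on its mean over all arrays, fibrillar collagens were highest in MAP3K11 tumours. Their class mean there was 0.72 ± 0.15 (log2, SD, n = 6), with all arrays between 0.53 and 0.91. Only 4 of the 70 other arrays lay above the lowest of these. RON+MSP (0.36), RSK2 (0.29), ErbB3 (0.22) and MAP3K7 (0.19 ± 0.44) tumours followed, and the low end was held by HER2 (-0.41 ± 0.19, n = 6), PIP5K1B (-0.45 ± 0.43, n = 6) and FAK1 (-0.51 ± 0.65, n = 4). The neighbours in this order overlapped array by array, and no test was made of the class mean. Other collagens were highest in ErbB3 (0.30 ± 0.25) and MAP3K11 (0.24 ± 0.09, n = 6 each). The type IV class had another order: FGFR2aIIIb (0.31 ± 0.06) and RSK2 (0.29 ± 0.50) led, MAP3K11 lay at -0.11, and PIP5K1B (-0.34 ± 0.06) and RONd160 (-0.44 ± 0.24, n = 6 each) were lowest.

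**Figure D2:**
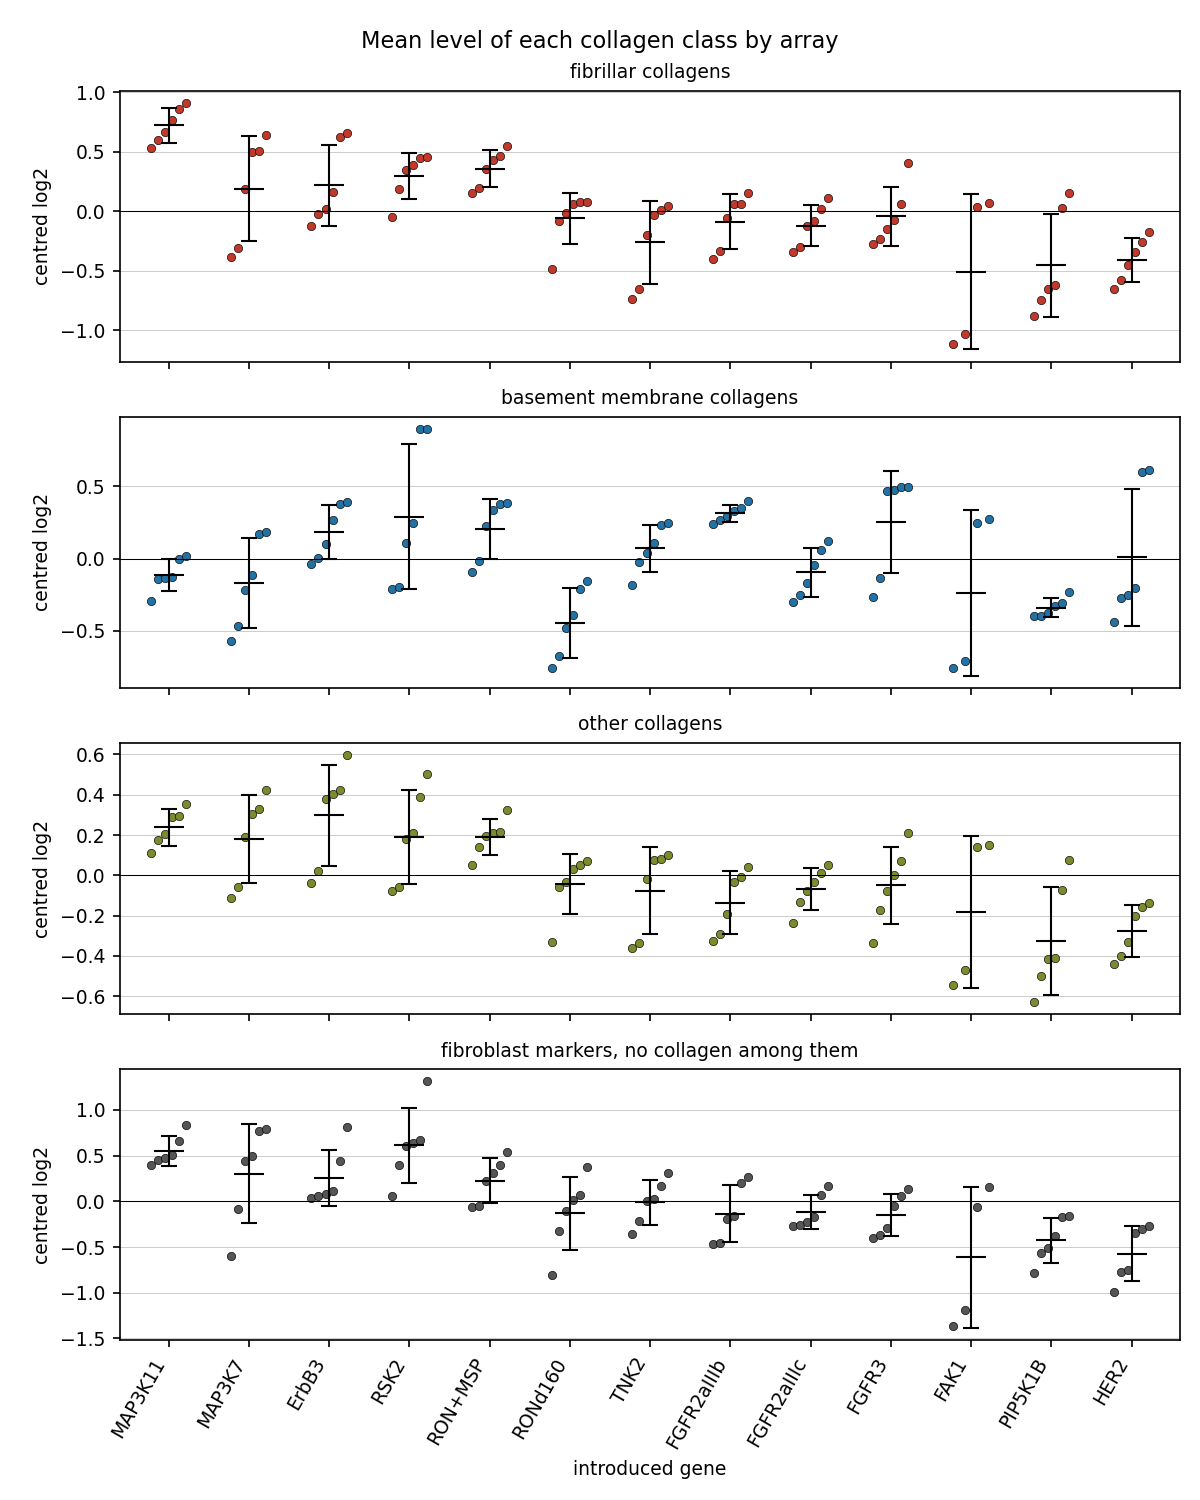
Class means of fibrillar, type IV (basement membrane) and other collagens, and of 16 fibroblast markers that are not collagens, by array (points) with the mean and SD of each group (log2 units, centred per gene). The 6 MAP3K11 arrays lie between 0.53 and 0.91 for fibrillar collagens, and FAK1, HER2 and PIP5K1B are lowest.

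Set against the other 12 groups, each weighted equally, MAP3K11 tumours had higher levels of 17 and lower levels of 3 of the 37 collagens. Of all tested genes 25.0% were higher and 29.3% lower in this comparison. With pairs as a block 15 collagens were higher and 2 lower, against 17.3% and 22.1% of all genes. The higher ones were 7 of 10 fibrillar genes (7 with pairs), 3 of 6 type IV chains (2) and 7 of 21 other collagens (6). The median difference was 0.74 over the fibrillar genes, -0.01 over type IV, 0.18 over the other collagens, 0.25 over all 37 and -0.01 over all tested genes. The 13 comparisons of each group with the others share arrays and are not independent.

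Col2a1, the cartilage fibrillar chain (chr15:97975602-98004724), gave the clearest separation. Its level was 7.70, 8.09 and 8.16 (lowest, median, highest) in MAP3K11 tumours, against 4.94, 5.60 and 6.16 in the 70 others, with no overlap. The difference was 2.38 ± 0.08 (SE, adjusted p = 3.93e-36). A single probe set measures Col2a1 on this array. Of 10 other cartilage and bone markers, 8 were measured and 4 tested, and none was called. Their mean level was -0.09 in MAP3K11 tumours, against -1.20 to 1.09 in the single arrays of the other groups.

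The interstitial fibril chains were higher by less. Col1a1, the alpha-1 chain of type I collagen, was at 11.97, 12.23 and 12.38 in MAP3K11 tumours and 9.79, 11.42 and 12.40 in the others. Its difference was 0.87 ± 0.19 (adjusted p = 0.000108). Col1a2, its partner chain, was at 13.05, 13.30 and 13.34 in MAP3K11 tumours, against 11.34, 12.61 and 13.40 in the others (difference 0.72 ± 0.16, adjusted p = 0.000132). Both groups overlapped for both chains, and all 6 MAP3K11 arrays lay above the mean of the others. Col3a1, the type III chain, was at 13.21, 13.34 and 13.43 in MAP3K11 tumours and at 11.86, 12.92 and 13.59 in the others (0.46 ± 0.12, adjusted p = 0.000887, and 0.0165 with pairs). These signals lie near the top of the array's values, which ended at 14.18.

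Of the type V chains, which take part in setting the diameter of type I fibrils, 2 of 3 were called higher. Col5a3 was at 10.79, 11.12 and 11.87 in MAP3K11 tumours, against 8.28, 9.73 and 11.03 in the others, a difference of 1.42 ± 0.21 (adjusted p = 3.96e-08). Col5a2 differed by 0.76 ± 0.18 and ranged from 12.22 to 12.73 in MAP3K11 tumours, against 10.20 to 12.60 in the others. For Col5a1 the difference was 0.39 ± 0.18 and did not pass (adjusted p = 0.0629). Its other 2 probe sets, which were not used in the fit, gave larger differences of means, 0.73 and 0.82, so the probe sets of Col5a1 disagree in size, and no test was made between the chains. Col27a1, a fibrillar chain of developing cartilage, differed by 0.90 ± 0.15. The type XI chains did not pass: Col11a1 differed by -0.08 and Col11a2 by 0.16 (adjusted p = 0.0600).

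The 2 multiplexins moved in opposite directions in MAP3K11 tumours. Col15a1 (chr4:47207655-47313167) was at 9.21, 9.54 and 9.84 in MAP3K11 tumours, against 6.57, 8.18 and 9.43 in the others, and 1 of the 70 other arrays lay above the lowest of the 6. Its difference was 1.44 ± 0.20 (adjusted p = 1.12e-08). Col18a1 (chr10:77052178-77166530), whose end fragment is endostatin, was at 9.98, 10.55 and 10.72 in MAP3K11 tumours, against 10.51, 12 and 12.86 in the others. It fell by 1.45 ± 0.16 (adjusted p = 4.99e-12), and its 2 probe sets gave differences of means of -1.44 and -1.55. The lowest Col18a1 arrays elsewhere were an RSK2 pair at 10.86 and 10.51 and a MAP3K7 pair at 10.78 and 10.76.

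Among transmembrane collagens, Col23a1 was at 7.29, 7.91 and 8.37 in MAP3K11 tumours and at 5.28, 6.49 and 8.17 in the others (1.39 ± 0.22, adjusted p = 2.97e-07). Col17a1 was at 4.25, 4.91 and 5.60 in MAP3K11 tumours, against 3.15, 3.70 and 8.27 in the others (1.08 ± 0.26, adjusted p = 0.000344, and 0.0461 with pairs). Only 7 arrays brought Col17a1 above the brightness needed for testing. The 3 main chains of microfibrillar type VI, Col6a1, Col6a2 and Col6a3, were higher by 0.66 ± 0.20, 0.64 ± 0.19 and 0.38 ± 0.13. Col6a4 was higher by 0.23, and not with pairs (adjusted p = 0.135).

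**Figure D3:**
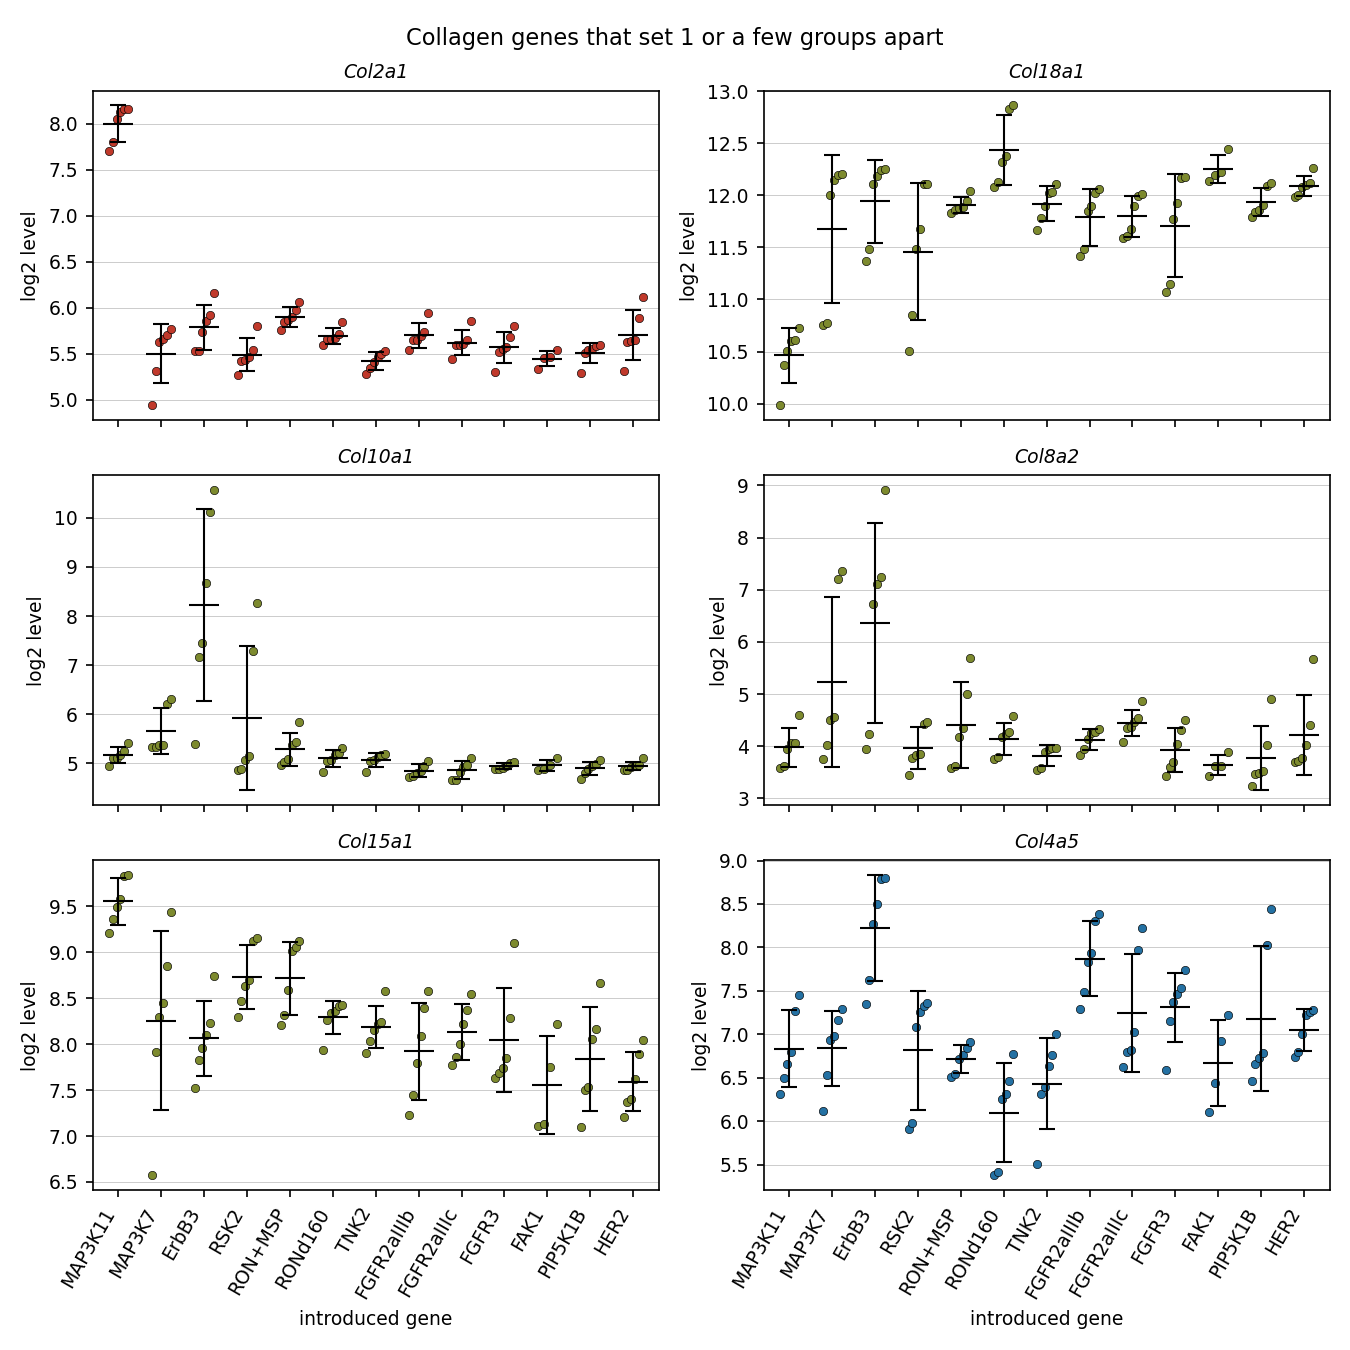
Levels of Col2a1, Col18a1, Col10a1, Col8a2, Col15a1 and Col4a5 (log2) by array (points) in the 13 groups, with the group mean and SD. Col2a1 is above 7.6 in the 6 MAP3K11 arrays alone, while Col10a1 and Col8a2 vary widely within the ErbB3 group.

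The type IV chains split by gene pair in MAP3K11 tumours. Col4a1 and Col4a2, neighbours on chromosome 8 and partners of the common network, were both higher. Col4a1 was at 11.56, 11.64 and 11.80 in MAP3K11 tumours and 9.79, 10.94 and 11.71 in the others (0.75 ± 0.12, adjusted p = 2.32e-07). Col4a2 was at 10.93, 11.06 and 11.17 in MAP3K11 tumours, against 9.59, 10.46 and 11.38 in the others (0.63 ± 0.12, adjusted p = 1.21e-05). Col4a3 and Col4a4, neighbours on chromosome 1 that make the glomerular network with Col4a5, were both lower. Col4a4 was at 3.43, 3.92 and 4.29 in MAP3K11 tumours, against 3.29, 5.04 and 7.83 in the others, a difference of -1.41 ± 0.41 (adjusted p = 0.00275, and 0.00895 with pairs). Col4a3 was at 3.93, 4.30 and 4.67 in MAP3K11 tumours, against a mean of 4.92 in the others, a difference of -0.65 ± 0.26 (adjusted p = 0.0291, and 0.0665 with pairs). The sizes varied by probe set. Those not used in the fit gave differences of means of -0.31 and -0.83 for Col4a4 and -1.05 for Col4a3.

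The Col4a3 call was also lost without any 1 of 3 MAP3K11 arrays (replicate 2 at T1, T2 or T3), at differences of -0.65 to -0.59 and adjusted p of 0.0517 to 0.0816. Col4a5 differed by -0.20 ± 0.22 (adjusted p = 0.461), and by -0.30, -0.10 and -0.34 without MAP3K11 replicate 1 at T1, replicate 2 at T1 and replicate 1 at T3, none of which passed. Col4a6 was higher by 0.18 ± 0.07 (adjusted p = 0.0226, and 0.183 with pairs), and without MAP3K11 replicate 1 at T1, replicate 2 at T2 or replicate 1 at T3 it did not pass (0.13 to 0.18). The other Col4a6 probe set, not used in the fit, went the other way, with a difference of means of -0.04. These chains lay low on the scale: 31 arrays brought Col4a3 and 44 brought Col4a4 above the brightness needed, and control probe sets with no mouse target had a median of 2.95.

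HER2 tumours carry the oncogene that drove the original model, and MAP3K7 is the second kinase that the design text names. Against HER2 tumours, MAP3K11 tumours had 20 collagens higher and 3 lower (17 and 3 with pairs), where 21.5% of all tested genes were higher and 27.7% lower (13.9% and 19.4% with pairs). The median difference was 1.13 over fibrillar genes, of which 9 of 10 were higher, and 0.68 over all 37. Col1a1 was at 11.97, 12.23 and 12.38 in MAP3K11 tumours and 10.14, 10.79 and 11.17 in HER2 tumours, which did not overlap (1.53 ± 0.26, adjusted p = 1.50e-06). Col2a1 was higher by 2.29 ± 0.11, Col15a1 by 1.96 ± 0.27, Col23a1 by 1.90 ± 0.30 and Col5a3 by 1.55 ± 0.28. Col6a1 (1.42), Col6a2 (1.41), Col5a2 (1.24), Col4a1 (1.19), Col1a2 (1.18), Col16a1 (1.09), Col27a1 (1.08), Col5a1 (1.02) and Col4a2 (0.99) were also higher. Col18a1 (-1.62 ± 0.21) and Col4a4 (-1.74 ± 0.55) were lower. Col4a3 differed by -1.09 ± 0.35 (adjusted p = 0.00827), and by -0.72 (adjusted p = 0.0764) without HER2 replicate 2 at T1.

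Against MAP3K7 tumours, 8 collagens were higher and 2 lower in MAP3K11 tumours, where 16.6% of all genes were higher and 20.8% lower. With pairs as a block 5 were higher and 1 was lower, against 8.80% and 12.8% of all genes. The 6 that passed both ways were Col2a1 (2.50 ± 0.11), Col15a1 (1.30 ± 0.27), Col23a1 (1.24 ± 0.30), Col5a3 (0.96 ± 0.28), Col27a1 (0.91 ± 0.21) and Col18a1 (-1.22 ± 0.21). The type I and III chains did not pass in this comparison, and the median difference over all 37 was 0.11. Col4a1 (0.49), Col4a6 (0.23), Col17a1 (0.92) and Col8a2 (-1.25 ± 0.48) passed with arrays as replicates alone, with adjusted p of 0.0758 to 0.301 with pairs. The Col8a2 difference rested on a MAP3K7 pair at 7.37 and 7.21, where the other MAP3K7 arrays were at 3.74 to 4.55: without either array of that pair it was -0.81 or -0.85 and did not pass (adjusted p = 0.176 and 0.156), nor did it without MAP3K11 replicate 1 at T2 or replicate 2 at T3 (-1.18 and -1.16). Col17a1 did not pass without any 1 of 5 arrays (MAP3K11 replicate 2 at T1 and replicate 1 at T3, MAP3K7 replicate 1 at T1 and both at T2), at 0.77 to 0.88.

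**Figure D4:**
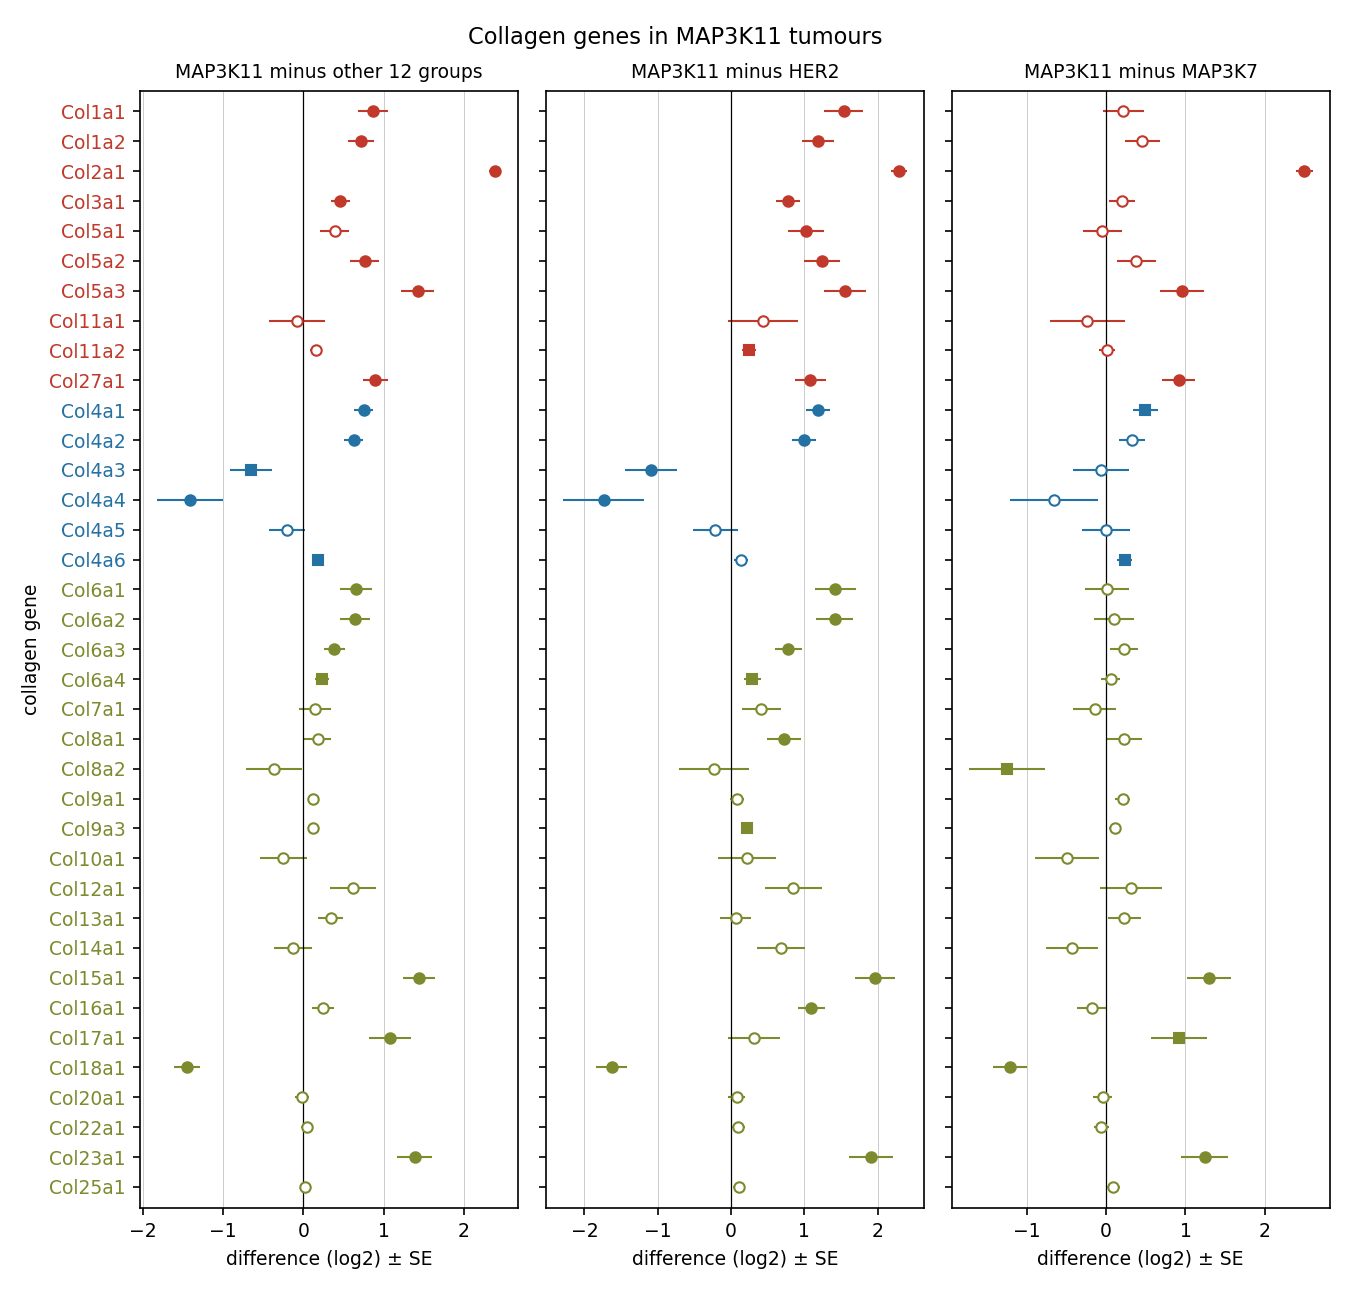
Fitted differences (log2, points) with their standard errors (bars) of the collagen genes in MAP3K11 tumours minus the other 12 groups, HER2 and MAP3K7. A filled circle marks a call with arrays and with pairs, a filled square a call with arrays alone and an open symbol no call. Col2a1 lies between 2.29 and 2.50 and Col18a1 between -1.62 and -1.22 in the 3 comparisons, which share the MAP3K11 arrays.

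Genes that make, bind or break down collagen were taken from lists of the pathway. Among all tested genes, 25.0% were higher and 29.3% lower in MAP3K11 tumours than in the other 12 groups (17.3% and 22.1% with pairs). No list was tested against these shares. Of the biosynthesis and assembly list, 29 of 31 measured genes were tested, and 13 were higher and 3 lower in MAP3K11 tumours than in the other 12 groups (12 and 1 with pairs). Pcolce2, an enhancer of procollagen C-proteinase, was at 11.07 in MAP3K11 tumours, against 9.04 (2.03 ± 0.31), and Loxl1, a lysyl oxidase that cross-links fibres, at 10.59, against 9.45 (1.15 ± 0.20). P4ha3, a prolyl 4-hydroxylase subunit, was higher by 0.82 ± 0.19 and Bmp1, a procollagen C-proteinase, by 0.76 ± 0.11. Lower were Ppib (-0.15 ± 0.03), a prolyl isomerase, Plod2 (-0.42 ± 0.14), a lysyl hydroxylase, and P4ha1 (-0.41 ± 0.12), another prolyl 4-hydroxylase subunit. The last 2 did not pass with pairs (adjusted p = 0.0763 and 0.0625), and Plod2 not without MAP3K11 replicate 1 at T3 (-0.32).

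Of 9 tested collagen receptors and uptake genes, 3 were higher and 1 lower in MAP3K11 tumours, with either spread. Beside the counts of this paragraph stand 25.0% of all tested genes higher and 29.3% lower (17.3% and 22.1% with pairs). Whether these lists depart from those shares was not tested. The higher ones were Itga1 (1.63 ± 0.15), the collagen-binding integrin alpha-1 chain, Mrc2 (1.26 ± 0.20), an endocytic collagen receptor, and Itgb1 (0.36 ± 0.09), the shared beta-1 chain. Itga10, another collagen-binding alpha chain, was lower by 0.38 on this scale (-0.38 ± 0.10). Of 13 degradation genes, 7 were higher and 1 lower (6 and 1 with pairs): Fap (1.97 ± 0.22), a fibroblast protease, Mmp9 (1.77 ± 0.42), a gelatinase, Mmp13 (1.51 ± 0.37), a collagenase, and Ctsk (1.08 ± 0.33, adjusted p = 0.0601 with pairs) rose, and Mmp16 (-1.67 ± 0.20), a membrane metalloprotease, fell. Of 14 TGF-beta ligands and targets, 4 were higher and none lower with either spread: Ltbp1 (1.19 ± 0.16), Smad3 (0.58 ± 0.14), Tgfb1 (0.38 ± 0.12) and Tgfbi (0.32 ± 0.08).

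Markers of several cell types moved beside the collagens, and their part in the collagen differences was not tested. The shares of all tested genes in this comparison were 25.0% higher and 29.3% lower (17.3% and 22.1% with pairs). Of 16 fibroblast markers that are not collagens, 7 were higher and 1 lower in MAP3K11 tumours with either spread; Twist2 (2.93), Fap (1.97) and Thy1 (1.58) were higher and Dcn (-1.47) was lower. Their centred mean lay at 0.40 to 0.83 in the MAP3K11 arrays, against -1.36 to 1.31 in the others. Of 8 pericyte markers 7 were higher, led by Notch3 (1.83), with a mean at 0.79 to 1.14, against -0.97 to 1.14. Endothelial markers were higher in 9 of 12 (5 with pairs) and epithelial ones in 6 of 9 (4 with pairs). Skeletal muscle markers were lower in 8 of 14 (3 with pairs), with a mean of -2.08 to -1.86 in the MAP3K11 arrays, against -2.02 to 3.90, and macrophage markers in 5 of 10 (4 with pairs). Basal markers were higher in 2 of 6 (0 with pairs) and none of 6 adipocyte markers was called.

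In ErbB3 tumours the largest differences were those of Col10a1 and Col8a2. Against the other 12 groups 13 collagens were higher and 2 lower, where 15.0% of all tested genes were higher and 13.6% lower. With pairs as a block 8 were higher and none was lower, against 5.80% and 6.12% of all genes. With pairs, no fibrillar gene passed, and 3 type IV chains and 5 other collagens did. Col10a1, the hypertrophic cartilage chain, was at 5.39, 8.06 and 10.56 in ErbB3 tumours, against 4.66, 5.02 and 8.26 in the others, a difference of 3.04 ± 0.30 (adjusted p = 2.49e-11, and 1.54e-08 with pairs). Its ErbB3 pairs lay at 5.39 and 7.17, at 7.46 and 8.67, and at 10.56 and 10.11. Outside ErbB3 it was high in an RSK2 pair (7.30 and 8.26) and a MAP3K7 pair (6.21 and 6.31). The group thus overlapped with single arrays of other groups, and its spread (SD 1.95) was wide.

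Col8a2 was at 3.94, 6.92 and 8.91 in ErbB3 tumours and 3.23, 4.01 and 7.37 in the others (2.21 ± 0.36, adjusted p = 4.54e-06). In 1 of the ErbB3 pairs it lay near the median of the others, at 4.22 and 3.94, while the other 2 pairs were at 6.73 to 8.91. Col4a5, a type IV chain encoded on chromosome X, was at 7.35, 8.38 and 8.80 in ErbB3 tumours, against 5.38, 6.83 and 8.44 in the others (1.32 ± 0.23, adjusted p = 1.31e-05, and 0.000349 with pairs). The other Col4a5 probe set, not used in the fit, gave a smaller difference of means, 0.65. Col4a1 and Col4a2 were each higher by 0.48 ± 0.12. Col6a2 (0.83 ± 0.19), Col6a1 (0.73 ± 0.21) and Col8a1 (0.70 ± 0.17) also passed with either spread.

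Several ErbB3 differences did not hold with pairs. Col11a1 differed by 1.34 ± 0.35 (adjusted p = 0.00302, and 0.0506 with pairs), and its high level came from the pair at 8.07 and 8.07. Without either array of that pair, ErbB3 replicate 2 at T1 or T3, Col11a1 did not pass the F test over the 13 groups (adjusted p = 0.0610 and 0.0518). Col14a1, a FACIT collagen, differed by 0.85 ± 0.24 (0.0910 with pairs) and by 0.68 without ErbB3 replicate 2 at T3 (adjusted p = 0.0505). Col23a1 differed by -0.67 ± 0.22 (adjusted p = 0.207 with pairs), and by -0.48 and -0.55 without ErbB3 replicate 1 at T2 and replicate 3 at T3, neither of which passed. Beside Col10a1, of the 4 tested cartilage and bone markers Sox9 was lower (-0.65 ± 0.16) and Acan, Sp7 and Comp were not called. Among all tested genes, 15.0% were higher and 13.6% lower in ErbB3 tumours (5.80% and 6.12% with pairs). Of 16 fibroblast markers 4 were higher and 2 lower (4 and 1 with pairs), 7 of 10 macrophage markers were higher (6 with pairs) and 6 of 14 skeletal muscle markers were higher (0 with pairs); their part was not tested.

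HER2 tumours held the lowest group mean of 9 of the 37 tested collagens. PIP5K1B tumours held that of more, among them Col1a1, Col3a1, Col4a1 and Col5a2. Against the other 12 groups 15 collagens were lower and 1 higher, where 11.1% of all tested genes were lower and 15.5% higher. With pairs 9 were lower and none higher, against 3.63% and 5.91% of all genes. The median difference over the 37 was -0.30, against 0.01 over all genes. Col16a1, a FACIT collagen, was at 7.34, 7.86 and 8.56 in HER2 tumours, against 7.74, 8.82 and 9.65 in the others, and fell by 0.94 ± 0.14 (adjusted p = 8.44e-07, and 0.000644 with pairs). Col6a2 was at 10.17, 10.75 and 11.04 in HER2 tumours and 10.06, 11.56 and 12.82 in the others (-0.89 ± 0.18, adjusted p = 0.000268), and Col6a1 differed by -0.88 ± 0.20.

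Of the main fibril chains in HER2 tumours, Col1a1 was lower by 0.79 on the log2 scale (-0.79 ± 0.19, adjusted p = 0.0288 with pairs), and Col1a2 (-0.56 ± 0.16) and Col3a1 (-0.38 ± 0.12) did not pass with pairs (adjusted p = 0.0672 and 0.113). Col4a1 (-0.53 ± 0.12) and Col4a2 (-0.45 ± 0.12) passed with either spread. Col17a1 was higher by 0.75 ± 0.26, and not with pairs (adjusted p = 0.302) nor without HER2 replicate 2 at T1 (0.63) or at T2 (0.74). Beside this, 8 of 16 fibroblast markers (3 with pairs), 3 of 8 pericyte markers (1) and 7 of 12 endothelial markers (1) were lower, as were 14 of 29 biosynthesis genes (10), of which 2 were higher (1). Among all tested genes, 11.1% were lower and 15.5% higher in HER2 tumours (3.63% and 5.91% with pairs). The fibroblast marker mean lay at -0.99 to -0.27 in HER2 arrays, against -1.36 to 1.31 in the others.

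PIP5K1B tumours were also low: 13 collagens were lower and none higher, where 7.45% of all tested genes were lower and 11.2% higher. With pairs 6 were lower and none higher, against 1.24% and 2.37%. The median difference was -0.40. Col1a1 was at 9.92, 10.42 and 11.38 in PIP5K1B tumours, against 9.79, 11.50 and 12.40 in the others (-0.93 ± 0.19, adjusted p = 0.000551, and 0.0236 with pairs). Col3a1 (-0.56 ± 0.12), Col4a1 (-0.60 ± 0.12) and Col12a1 (-1.20 ± 0.29), a FACIT collagen, passed with either spread too, as did Col5a2 (-0.70 ± 0.18, adjusted p = 0.0493 with pairs) and Col6a2 (-0.77 ± 0.19, adjusted p = 0.0489 with pairs). Of the fibroblast markers 5 of 16 (1 with pairs), of the pericyte markers 5 of 8 (0) and of the endothelial markers 9 of 12 (0) were lower in limma's fit; their part was not tested.

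FAK1 tumours had 1 collagen higher and 4 lower with arrays as replicates, and none with pairs, where 11 had an unadjusted p under 0.05. Of all tested genes 8.42% were called (0.808% with pairs). The 4 arrays formed 2 unlike pairs. Col5a1 was at 11.56 and 11.44 in one and 9.04 and 9.17 in the other, while the others' mean lay between them (difference -0.79 ± 0.22, adjusted p = 0.107 with pairs). Col3a1 had the same split (12.94 and 13.00, against 11.86 and 11.96 in the other pair). Col4a1 differed by -0.51 ± 0.14, and without FAK1 replicate 2 at T1 or replicate 1 at T3 by -0.41 and -0.31, neither of which passed. Col7a1, the anchoring fibril chain, was at 10.73, 10.95, 10.56 and 10.56 in FAK1 tumours (0.73 ± 0.24, adjusted p = 0.0454); that call was lost without any 1 of the 4 FAK1 arrays (0.62 to 0.82) and without RONd160 replicate 2 at T1 (0.72). With arrays as replicates, 6 of 16 fibroblast (1 with pairs), 6 of 12 endothelial (0), 2 of 6 basal (0) and 2 of 6 adipocyte markers (0) were lower and none of them higher in FAK1 tumours; their part was not tested. The fibroblast mean lay at -1.36 to 0.16 in FAK1 arrays, against -0.99 to 1.31 in the others. The count of 5 became 13 without FAK1 replicate 1 at T1, 12 without replicate 1 at T2, 1 without replicate 2 at T1 and 0 without replicate 1 at T3.

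RSK2 tumours had 9 collagens higher and 1 lower, where 8.73% of all tested genes were higher and 9.52% lower, and with pairs 1 higher and none lower, against 1.49% and 1.10%. The median difference was 0.31. The 1 that held was Col27a1 (0.62 ± 0.16, adjusted p = 0.0346 with pairs), which ranged from 7.90 to 9.27 in RSK2 tumours, against 6.98 to 9.25 in the others. Col14a1 (0.91 ± 0.24), Col1a1 (0.70 ± 0.19), Col1a2 (0.45), Col3a1 (0.41), Col4a1 (0.44), Col4a2 (0.44), Col6a2 (0.53) and Col15a1 (0.54) passed with arrays alone. Col15a1 had an adjusted p of 0.0499 and lost its call in 52 of 76 fits that left out 1 array each (0.45 to 0.60). Markers moved beside these collagens, and their part was not tested: 10 of 12 endothelial (7 with pairs), 7 of 16 fibroblast (1), 5 of 8 pericyte (0) and 12 of 14 skeletal muscle markers (0) were higher and none of them lower. The fibroblast mean lay at 0.06 to 1.31 in RSK2 arrays, against -1.36 to 0.83 in the others, and the endothelial mean at 0.31 to 0.84, against -1.46 to 0.97. Of the 29 biosynthesis genes 11 were higher and 1 lower (5 and 0 with pairs).

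RON+MSP and MAP3K7 tumours gave no collagen call with pairs, where 7 and 8 collagens had an unadjusted p under 0.05. With arrays as replicates, RON+MSP had 4 higher and none lower, where 4.18% of all genes were higher and 4.39% lower (0.224% and 0.238% with pairs): Col5a3 (0.89 ± 0.21), Col13a1 (0.62 ± 0.15), Col5a1 (0.56 ± 0.18) and Col4a1 (0.40 ± 0.12). The Col13a1 call was lost without RON+MSP replicate 1 at T1 (0.51), and that of Col5a1 without any 1 of the 6 RON+MSP arrays (0.50 to 0.64). The count of 4 became 2 without any 1 of 5 RON+MSP arrays (all but replicate 2 at T2). In RON+MSP tumours 3 of 16 fibroblast markers were higher (0 with pairs) and none lower, with a mean at -0.06 to 0.54, against -1.36 to 1.31 in the others; their part was not tested. MAP3K7 had 5 higher and 1 lower, where 12.2% of all genes were higher and 12.3% lower (3.76% and 4.14% with pairs): Col8a2 (0.99 ± 0.35), Col6a1 (0.64 ± 0.20), Col1a1 (0.63 ± 0.19), Col6a2 (0.53 ± 0.19) and Col16a1 (0.45 ± 0.14) were higher. The level of Col8a2 was high in the MAP3K7 pair described above and far lower in the other MAP3K7 arrays. Col6a1 did not pass without MAP3K7 replicate 1 or 2 at T1 or replicate 1 at T3 (0.57 to 0.60), nor Col1a1 without replicate 2 at T1 or replicate 1 at T3 (0.56 and 0.54). The count of 6 became 2 without either of these arrays and 11 without replicate 2 at T3. In MAP3K7 tumours 4 of 16 fibroblast (3 with pairs) and 3 of 10 macrophage markers (0) were higher and none lower, and the fibroblast mean lay at -0.59 to 0.79, against -1.36 to 1.31 in the others; their part was not tested. Of the pathway lists, 14 of 29 biosynthesis genes were higher and 1 lower (6 and 0 with pairs), and 7 of 13 degradation genes were higher (5 with pairs).

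RONd160 tumours had 2 collagens higher and 2 lower with either spread, where 11.4% of all tested genes were higher and 11.9% lower (4.13% and 4.60% with pairs). Col18a1 was at 12.08, 12.35 and 12.86 in RONd160 tumours, against 9.98, 11.91 and 12.44 in the others (0.69 ± 0.16, adjusted p = 0.000767, and 0.00527 with pairs). Col13a1, a transmembrane collagen, was higher by 0.65 ± 0.15 (adjusted p = 0.0392 with pairs). Col4a5 was at 5.38, 6.28 and 6.77 in RONd160 tumours, against a mean of 7.10 in the others (-0.97 ± 0.23, adjusted p = 0.000920, and 0.00840 with pairs), and Col8a1 differed by -0.58 ± 0.17. Col18a1 and Col4a5 thus had their group extremes in 3 groups: Col18a1 was highest in RONd160 and lowest in MAP3K11 tumours, and Col4a5 highest in ErbB3 and lowest in RONd160 tumours.

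FGFR2aIIIb tumours had 2 collagens higher and 2 lower, where 7.17% of all genes were higher and 4.69% lower, and with pairs 1 higher and none lower, against 1.50% and 0.411%. Col4a5 was at 7.29, 7.88 and 8.38 in FGFR2aIIIb tumours (0.92 ± 0.22, adjusted p = 0.00422, and 0.0390 with pairs). Col27a1 (-0.60 ± 0.15, adjusted p = 0.0522 with pairs), Col4a3 (0.83 ± 0.26) and Col4a2 (-0.35 ± 0.12) did not hold. Col4a3 lost its call without FGFR2aIIIb replicate 1 or 2 at T1 or replicate 1 at T3 (0.73 to 0.82), and Col4a2 without any 1 of 10 arrays, 4 of them from FGFR2aIIIb, 2 each from FAK1 and HER2 and 1 each from RON+MSP and RSK2 (-0.37 to -0.25). Without FGFR2aIIIb replicate 1 or 2 at T1 or replicate 1 at T3 the count of 4 became 2.

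TNK2 tumours had 1 collagen higher and 2 lower, and none with pairs (4 at an unadjusted p under 0.05), where 3.26% of all genes were higher and 1.90% lower (0.0649% and 0.0288% with pairs). Col20a1 (0.30 ± 0.09) and Col5a3 (-0.70 ± 0.21) each lost their call without any 1 of several TNK2 arrays: replicates 1 and 2 at T1 and 1 and 3 at T2 for Col20a1 (0.23 to 0.31), and these and replicate 2 at T2 for Col5a3 (-0.75 to -0.59). The count of 3 became 1 without replicate 1 or 2 at T1 or replicate 1 or 3 at T2. FGFR2aIIIc and FGFR3 tumours gave no collagen call in limma with either spread. At an unadjusted p under 0.05 they had 1 and 8 collagens with arrays as replicates and 0 and 5 with pairs, and 1.62% and 2.60% of all genes were called (0.0721% and 0% with pairs). The count in FGFR3 tumours became 3 without FGFR3 replicate 3 at T1 or replicate 2 at T2, and 1 without HER2 replicate 1 at T1 or MAP3K7 replicate 2 at T2.

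Col2a1 was called lower in FAK1 (-0.38 ± 0.09), TNK2 (-0.41 ± 0.08), RSK2 (-0.34 ± 0.08), MAP3K7 (-0.32 ± 0.08) and PIP5K1B (-0.31 ± 0.08) tumours against their other 12 groups, which include MAP3K11. None of these calls held with pairs. With the MAP3K11 arrays left out (an alternative added once the data had been seen), these differences were -0.18 in FAK1, -0.21 in TNK2, -0.14 in RSK2, -0.12 in MAP3K7 and -0.12 in PIP5K1B tumours, and none passed (adjusted p = 0.123 to 0.311). In that fit Col2a1 was higher in RON+MSP tumours than in the remaining groups (0.31, adjusted p = 0.00609). The Col2a1 call in FAK1 tumours was also lost without FAK1 replicate 1 at T3 (adjusted p = 0.0515), and that in MAP3K7 tumours without MAP3K7 replicate 2 at T2 (-0.20).

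The T mark did not separate the collagens. T2 against T1 and T3 against T1 gave 0 collagen calls in limma with either spread, and 0% of all genes in each with arrays as replicates (with pairs, 0% and 0.00721%). At an unadjusted p under 0.05 there were 0 collagens in each with arrays as replicates, and 1 and 2 with pairs.

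Correlations between members were taken over the 76 arrays. They are descriptions, as the arrays share groups and pairs. Between chains of one collagen type, Pearson's r was 0.875 for Col1a1 and Col1a2 and 0.981 for Col6a1 and Col6a2. Between types it was 0.960 for Col1a1 and Col3a1, and 0.939 for Col3a1 and Col5a2, neighbours on chromosome 1. After group means were subtracted, Col1a1 had an r of 0.846 with Col1a2 and 0.957 with Col3a1. By likeness to Col1a1, the nearest members were Col3a1, Col5a2 (0.945), Col6a2 (0.930), Col6a1 (0.922) and Col1a2, and the farthest was Col18a1 (-0.460). Col15a1 and Col18a1 had an r of -0.525, which was -0.113 within groups.

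Type IV divided into separate units. Col4a1 and Col4a2 had an r of 0.954 (0.913 within groups) and Col4a3 and Col4a4 of 0.923 (0.896 within groups), while Col4a1 and Col4a4 had -0.069 and Col4a5 and Col4a6 had -0.218. The median over all gene pairs was 0.008 within type IV (15 pairs), 0.549 within the fibrillar class (45) and 0.154 within the others (210). Col4a1 also followed Col1a1 (0.836). The mean of Col4a1 and Col4a2 was 0.62 ± 0.08 in MAP3K11 tumours and lowest in HER2 (-0.47) and PIP5K1B (-0.48) tumours.

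The mean of Col4a3 and Col4a4 was -0.95 ± 0.16 in MAP3K11 tumours, against 0.91 ± 1.14 in FGFR3, 0.89 ± 0.39 in FGFR2aIIIb, 0.58 ± 1.39 in RSK2, 0.47 ± 0.78 in RON+MSP, 0.46 ± 0.67 in TNK2 and 0.46 ± 1.36 in HER2 tumours (SD, n = 6 each). In RSK2, HER2 and FGFR3 tumours, pairs of the same group lay far apart. Col4a4 was at 7.83 and 7.62 in one RSK2 pair and at 3.81 and 3.96 in another. It was at 7.57 and 7.59 in one HER2 pair, and at 4.27 to 5.10 in the other 2. In FGFR3 tumours it was at 7.48 and 7.45 and at 7.01 and 7.05 in 2 pairs, and Col4a3 at 6.39 and 6.01 and at 6.01 and 5.99 in the same arrays. Neither gene passed in FGFR3 tumours against the others (Col4a4 1.23 ± 0.41, adjusted p = 0.0806).

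**Figure D5:**
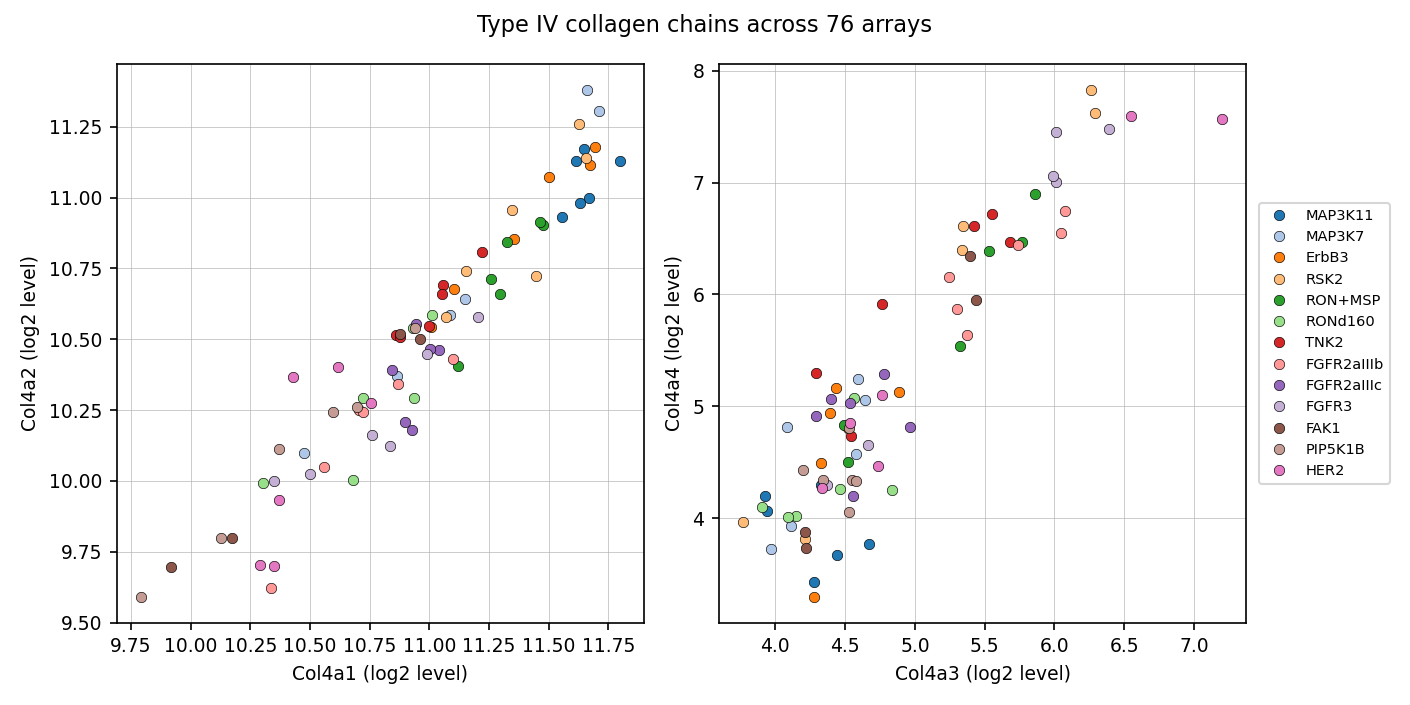
Levels (log2) of Col4a2 against Col4a1 and of Col4a4 against Col4a3 in the 76 arrays (points, coloured by group). Both neighbour pairs lie along a line (r of 0.954 and 0.923); the MAP3K11 arrays are at the upper end of the first and the lower end of the second.

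The fibrillar class mean tracked some of the non-collagen lists across arrays. Its r was 0.889 with biosynthesis and assembly genes and 0.876 with fibroblast markers (0.820 within groups). With pericyte markers it was 0.825 and with endothelial markers 0.764. It was 0.569 with basal or myoepithelial, 0.113 with macrophage, 0.104 with adipocyte, 0.066 with skeletal muscle and 0.030 with epithelial markers. The mean of Col4a1 and Col4a2 had an r of 0.874 with endothelial markers and 0.847 with the fibrillar class. Its r was about as high with biosynthesis and assembly genes (0.874) and fibroblast markers (0.84). The mean of Col4a3 and Col4a4 had -0.145 with the fibrillar class. All lists were measured on the same arrays.

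The remaining 5 members are left without a test. Col6a5 lay at 2.16 to 2.68 and below the control level of 2.95 in all 13 groups. Col24a1, a fibrillar chain, was at or below it in 11 groups, and ranged from 2.71 to 3.62 in MAP3K11 tumours, against 2.17 to 3.76 in the others. Col9a2 (3.66 to 4.62), Col19a1 (3.05 to 3.82) and Col26a1 (3.26 to 3.88) were above the control level in all groups and too dim for the test. Among those tested, Col17a1 reached the required brightness in 7 arrays, Col8a2 in 11, Col11a2 in 18, Col6a4 in 31 and Col11a1 in 49, the least required being 4, so that a high level in 1 group could admit a gene.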

How the data were processed

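Per the labels' protocols, total RNA was extracted with RNeasy columns and biotinylated cRNA hybridised to Affymetrix arrays, 1 per sample. Per the submitters' processing notes the affy package was used; its version and the normalization are not stated in these sources. The authors deposited log2 values (1.77 to 14.18) for 45101 probe sets, of which 34958 name 1 gene, 932 several and 9211 none in the platform annotation; array precision is limited by the number of arrays. From these, 1 probe set per gene (highest mean) was taken. Genes were tested where 4 or more arrays had them above that array's 40th percentile. limma 3.58.1 in R 4.3.3 was fitted to the introduced gene and T mark over all 76 arrays (61 residual degrees of freedom), and fitted differences depart slightly from differences of means. The fit was tested on simulated data in which all arrays were drawn independently, so this does not cover likeness within pairs. Pairs of arrays were matched within groups on the medians of the 19 autosomes. Between arrays of different groups, those with the same replicate number were no more alike than others. Their median r was -0.0094 (lowest -0.491), against -0.0015 between other numbers. This comparison left out arrays of the same group, where some matched pairs, such as those of TNK2, shared the number. P-values measure the spread between arrays, which may be technical.

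The collagen genes, classes, related lists and markers were chosen with earlier results of these data known. Members were named by rule: in the F test the 4 per class with the widest group means; for MAP3K11 every called difference of 1 or more and the 5 largest each way; for the other groups up to 3 called each way with all arrays on 1 side; the chains of types I, III and IV always; and up to 4 called list genes each way. Members named beside these were chosen after their values were seen. Alternatives were normalization, filter, probe sets, variance prior, array weights, T term, blocks, fewer arrays and a stricter threshold.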

Additional observations from a re-analysis of the deposited data

Results flagged for a closer look

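Among 231 groups of 4 to 6 arrays examined for named members and class means, 10 had 1 array whose gap to the nearest other exceeded Dixon's 95% critical value; chance gives about 1 in 20. RONd160 replicate 3 at T1 was low in 3 of them: in the fibrillar class mean it was at -0.4837, where the other RONd160 arrays lay between -0.0803 and 0.0775, in the mean of the other collagens at -0.3286 (others -0.059 to 0.0716), and in Col15a1 at 7.9329 (others 8.2622 to 8.4233). HER2 replicate 1 at T2 was high in both Col11a1, at 6.2378 (others 4.079 to 4.6692), and Col8a2, at 5.6803 (others 3.6957 to 4.4061).

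Col4a4 was at 3.2902 in ErbB3 replicate 2 at T1 (others 4.4891 to 5.1588) and at 5.0717 in RONd160 replicate 1 at T2 (others 4.0103 to 4.2637). The remaining cases were Col2a1 at 5.2917 in PIP5K1B replicate 1 at T1 (others 5.5074 to 5.5917), Col10a1 at 4.8184 in TNK2 replicate 2 at T2 (others 5.0566 to 5.1915) and Col20a1 at 6.5453 in TNK2 replicate 1 at T1 (others 6.0395 to 6.2279).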

How the results depend on the processing

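Over the alternatives run, no named collagen difference changed direction and no class mean moved by more than its spread over arrays. The counts of called collagens ranged from 26 to 34 in the F test (30 to 33 with 1 array left out), from 16 to 24 for MAP3K11 against the other 12 groups (18 to 24) and from 20 to 25 against HER2 (20 to 24). The sum over the 13 comparisons of each group was 100, with 46 for pairs of arrays as a random block, 65 at an adjusted p under 0.01, and 94 to 117 with 1 array left out. MAP3K11 against MAP3K7 gave 10, with 6 for pairs, 6 at an adjusted p under 0.01, 6 from the arrays of these 2 groups alone, and 8 to 10 with 1 array left out. Of 85 differences of named members, 28 lost their call with pairs and 18 at an adjusted p under 0.01. Array weights brought the sum to 149 and moved the counts in PIP5K1B (13 to 24), RSK2 (10 to 18), FAK1 (5 to 0), FGFR2aIIIb (4 to 9), FGFR2aIIIc (0 to 1), FGFR3 (0 to 8), RON+MSP (4 to 8) and TNK2 (3 to 9); their estimation stopped before convergence and the cause was not tested. Without the MAP3K11 group, a setting added after the data were seen, the counts moved in RON+MSP (4 to 8), FAK1 (5 to 2), FGFR2aIIIb (4 to 2) and TNK2 (3 to 1). The mean of all probe sets moved those in RON+MSP (4 to 2), TNK2 (3 to 1) and FGFR3 (0 to 1), and leaving out 2 MAP3K7 arrays that in MAP3K7 (6 to 3). With the replicate block, the number in the titles as a fixed term, the counts were 31 in the F test, 20 for MAP3K11, 102 in sum, 23 against HER2 and 10 against MAP3K7, with FAK1 at 8 instead of 5. T2 and T3 against T1 gave 0 throughout, and without a T term they have no value. Dim members are limited by signal over background, since Col4a3, Col4a4, Col8a2 and Col17a1 lie near the low end of the scale in most groups.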

Other observations

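Col17a1, the hemidesmosomal transmembrane collagen, was at 8.27 in 1 RSK2 array (replicate 2 at T2), the highest of all 76 arrays. The array matched to it as a pair was at 3.63, and the other RSK2 arrays were at 3.35 to 3.93.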
